A study of Mus musculus with 6 samples.

Results

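The NF-kB system was followed here through 10 of the 26110 genes in the deposited expression table, picked by gene symbol. They were the 5 subunit genes Nfkb1, Nfkb2, Rel, Rela and Relb, the cytoplasmic inhibitors Nfkbia and Nfkbie, the nuclear IkB genes Nfkbiz and Bcl3, and Tnfaip3, which encodes the feedback enzyme A20. RNA was sequenced in bulk from MHCII hi cells of the small bowel muscularis externa (ME) that had been sorted into CX3CR1- and CX3CR1+ cells, with 3 libraries of each population. All animals were naive, untreated mice of the genotype CX3CR1+/GFP, so that both populations carried 1 Cx3cr1 allele replaced by GFP. For sorting, tissue of 6 mice per group had been pooled, and it is not stated if every library had a separate pool, so the p-values measure only the spread between libraries. The paper states a C57BL/6 background for its mouse lines and female mice for its animal experiments. The age of the mice is not given in the sources used here. In bulk samples, fewer cells of a type and less RNA per cell cannot be told apart.

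NF-kB is a family of dimeric transcription factors that turn on inflammatory and survival genes when macrophages and dendritic cells sense microbes or cytokines. In resting cells the canonical dimers of RelA, c-Rel and p50 are held in the cytoplasm by IkB proteins, and the IKK complex releases them by marking IkB for degradation. The freed dimers induce their own inhibitors, among them IkBα from Nfkbia and A20 from Tnfaip3, which closes a negative feedback loop. In the non-canonical arm, receptors such as CD40 and the BAFF receptor act through the kinase NIK on the p100 product of Nfkb2, which partners RelB.

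All 10 genes had a lower mean in CX3CR1- than in CX3CR1+ cells, and the difference was largest for Nfkbiz and Tnfaip3, at 33.9% and 38.8% of the CX3CR1+ mean. The 5 subunit genes lay between 49.9% (Nfkb1) and 65.2% (Relb) of the CX3CR1+ mean. A gene was called when its log2 fold change was at least 1 in size with an adjusted p of at most 0.05, from limma on log2(value + 1) with Benjamini-Hochberg adjustment over 17812 genes whose mean value was 10 or more, among them all 10. By this rule 2 of the 10 fell in CX3CR1- cells and 0 rose, where over all tested genes 8.15% fell and 12.2% rose. With no fold threshold, 7 of the 10 were lower at an adjusted p of at most 0.05, against 11% of the tested genes. In 9 of the 10 every CX3CR1- library lay below every CX3CR1+ library, as it did in 19.8% of the tested genes. The median log2 fold change (CX3CR1- minus CX3CR1+) was -0.85 over the 10 genes and -0.00 over all tested genes.

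The promoters are shown because NF-kB feeds back on its own subunits and inhibitors through kB sites. RefSeq (GRCm38.p6) gave promoters for 7 of the 10 genes, 10 promoters in all because Nfkb2 has 3 and Tnfaip3 has 2, whereas Nfkb1, Relb and Nfkbiz were not matched. The 250 bases before each start were searched on both strands, with overlapping matches counted, for the 10-base kB consensus, which reads GGG, a purine, any base, A or T, a pyrimidine pair and CC. The upstream sequences of Nfkbia (chr12:55492648-55492897, minus strand), the first Tnfaip3 start (chr10:19015411-19015660, minus strand), Rel (chr11:23770970-23771219, minus strand) and the first Nfkb2 start (chr19:46304487-46304736, plus strand) read as follows, 5′ to 3′, with kB matches in capitals.
Nfkbia: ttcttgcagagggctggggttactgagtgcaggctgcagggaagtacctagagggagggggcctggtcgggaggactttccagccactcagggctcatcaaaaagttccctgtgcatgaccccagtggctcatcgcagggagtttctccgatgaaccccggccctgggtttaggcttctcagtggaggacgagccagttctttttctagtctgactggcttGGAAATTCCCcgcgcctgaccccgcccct
Tnfaip3: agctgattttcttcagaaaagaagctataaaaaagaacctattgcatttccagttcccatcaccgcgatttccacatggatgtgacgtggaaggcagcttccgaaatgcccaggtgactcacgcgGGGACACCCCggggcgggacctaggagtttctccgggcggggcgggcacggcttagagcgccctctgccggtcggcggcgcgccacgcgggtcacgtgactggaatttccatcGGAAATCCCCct
Rel: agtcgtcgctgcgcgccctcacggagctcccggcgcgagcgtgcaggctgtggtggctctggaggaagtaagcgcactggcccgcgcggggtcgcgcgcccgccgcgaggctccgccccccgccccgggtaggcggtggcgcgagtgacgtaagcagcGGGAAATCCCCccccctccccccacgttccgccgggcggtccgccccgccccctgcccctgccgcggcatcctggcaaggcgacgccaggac
Nfkb2: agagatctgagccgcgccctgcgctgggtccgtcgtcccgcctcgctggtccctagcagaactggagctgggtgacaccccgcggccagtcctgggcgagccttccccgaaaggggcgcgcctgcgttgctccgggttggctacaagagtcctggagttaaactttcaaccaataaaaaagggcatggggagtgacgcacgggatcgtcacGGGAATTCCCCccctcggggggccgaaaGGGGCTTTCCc

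The match in Nfkbia, GGAAATTCCC, ended 20 bases before the start. Tnfaip3 held GGGACACCCC and, 12 to 3 bases before its start, GGAAATCCCC. The letters GGAAATCCCC also occurred in Rel, where they overlapped GGGAAATCCC, a sequence that meets the consensus on both strands. In the first Nfkb2 promoter GGGAATTCCC, which also matches on both strands, overlapped GGAATTCCCC, and GGGGCTTTCC followed close to the start. Single matches stood in the other two Nfkb2 promoters and in the promoter of Nfkbie (GGGGGATTCC), and none in those of Rela, Bcl3 and the second Tnfaip3 start. A match was thus present in 7 of the 10 promoters (70%), and in 1281 of all 32851 promoters in the table (3.90%). At least 2 matches stood in 3 of the 10 and in 162 of all promoters (0.493%). These are descriptions of letters within a window and not of binding, which was not measured.

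Rel and Nfkb1 were the most abundant subunit transcripts. Rel, on chr11:23736847-23770970 (minus strand, GRCm38, as for all genes here), encodes c-Rel, the subunit best known from lymphocytes and activated myeloid cells. It had normalized values of 6058, 6021 and 5164 in CX3CR1- replicates 1, 2 and 3 and of 9002, 13086 and 10856 in CX3CR1+ replicates 1, 2 and 3. The lowest CX3CR1+ library was well above the highest CX3CR1- library. The CX3CR1- mean was 5747 ± 506 and the CX3CR1+ mean 10981 ± 2045 (SD, n = 3 each). This gave a log2 fold change of -0.92 (standard error [SE] 0.16, 95% interval -1.28 to -0.57, adjusted p = 0.00208 from limma), which passed the p threshold but not the fold threshold, and it reached -1.06 without CX3CR1+ replicate 1. After quantile normalization it was -0.41 (adjusted p = 0.0805), and scaled to Ptprc -0.72 (adjusted p = 0.0538).

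Nfkb1 (chr3:135584655-135691547, minus strand) encodes p105, the precursor of p50. Its values were 1875, 1917 and 1514 in the CX3CR1- libraries and 2475, 4367 and 3790.2 in the CX3CR1+ libraries. The groups did not overlap, although CX3CR1+ replicate 1 lay closer to the CX3CR1- libraries than to the other two of its group. The means were 1769 ± 222 (SD, n = 3) and 3544 ± 969.7 (SD, n = 3), a log2 fold change of -0.97 (SE 0.21, 95% interval -1.45 to -0.49, adjusted p = 0.00806 from limma). Nfkb1 thus missed the fold threshold by little, and it passed at -1.21 without CX3CR1+ replicate 1, at -1.02 without CX3CR1- replicate 1 and at -1.03 without CX3CR1- replicate 2. After quantile normalization it was -0.55 (adjusted p = 0.0662), and the p threshold was also missed with no intensity trend (adjusted p = 0.0641) and scaled to Ptprc (adjusted p = 0.0617).

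Rela (chr19:5637483-5648130, plus strand) encodes p65, the main activating partner of p50. Its values were 451, 249 and 297 in CX3CR1- libraries, against 552, 693 and 527 in CX3CR1+ libraries. CX3CR1- replicate 1 was the high one of its group, and the groups still did not overlap. With a log2 fold change of -0.86 (SE 0.25, 95% interval -1.41 to -0.31, adjusted p = 0.0282 from limma), Rela passed the p threshold alone. CX3CR1- replicate 1 narrowed the difference, and without it the change was -1.11 with an adjusted p of 0.00862, while leaving out any other single library gave an adjusted p between 0.0638 and 0.126. The p threshold was also missed after quantile normalization, with equal non-mitochondrial totals, with no trend and scaled to Ptprc (adjusted p from 0.0689 to 0.198).

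The 2 genes of the non-canonical arm were the least abundant subunits per kb. Nfkb2 (chr19:46304320-46312385, plus strand), which encodes p100, the precursor of p52, had values of 153, 176 and 226 in CX3CR1- and of 244, 384 and 348 in CX3CR1+ libraries. The gap between the groups was narrow, from 226 to 244. Its log2 fold change was -0.80 (SE 0.25, 95% interval -1.36 to -0.24, adjusted p = 0.0423 from limma), and the adjusted p was 0.113 without CX3CR1- replicate 1, 0.077 without CX3CR1- replicate 2, 0.181 without CX3CR1+ replicate 2 and 0.149 without CX3CR1+ replicate 3. With no filter on low values, and in the same scaling and trend settings as for Rela, it lay between 0.0518 and 0.275.

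Relb (chr7:19606217-19629438, minus strand) encodes RelB, the partner of p52 and a factor in dendritic cell maturation. It had values of 229, 164 and 175 in CX3CR1- and of 245, 287 and 339.5 in CX3CR1+ libraries. The groups did not overlap, but the highest CX3CR1- library came close to the lowest CX3CR1+ library. The log2 fold change of -0.62 (SE 0.23, 95% interval -1.13 to -0.10) had an adjusted p of 0.0836 from limma and so was not past the threshold. Its transcripts share 1.81% of their 31-mers with other genes, the highest share among the 10 genes.

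**Figure D1:**
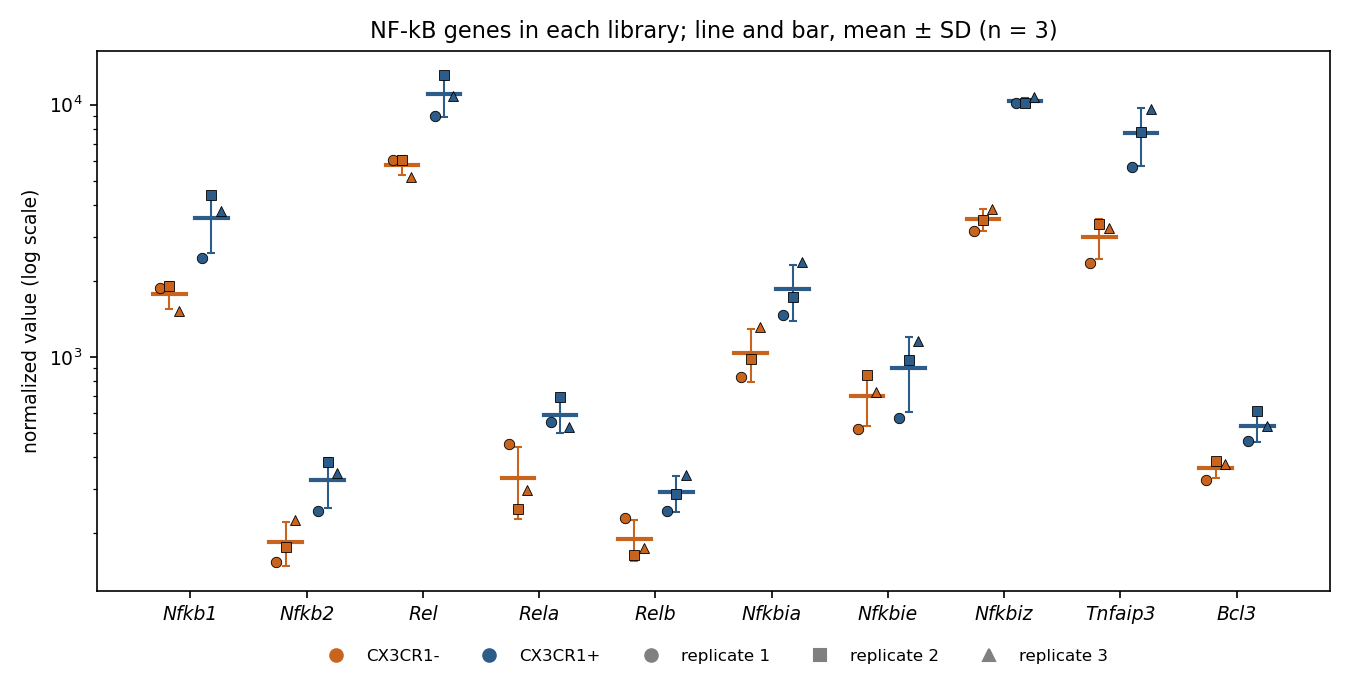
Normalized value (log axis) of the 10 NF-kB genes in each of the 6 libraries, with CX3CR1- libraries in orange and CX3CR1+ libraries in blue, a marker shape for each replicate, and the mean ± SD (n = 3) as line and bar. The groups are apart in every gene except Nfkbie, and the widest gap is that of Nfkbiz, from 3863 to 10179.

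Of the 2 cytoplasmic inhibitors, one was lower in CX3CR1- cells and the other did not pass any threshold. Nfkbia (chr12:55489410-55492647, minus strand) encodes IkBα, the inhibitor that is resynthesized first after NF-kB activation. Its values were 831, 976 and 1312 in CX3CR1- and 1466, 1723 and 2371 in CX3CR1+ libraries. The spread within each population was wide, and the highest CX3CR1- library was just under the lowest CX3CR1+ library. The means were 1039.8 ± 247 and 1854 ± 467 (SD, n = 3 each), with a log2 fold change of -0.83 (SE 0.23, 95% interval -1.33 to -0.33, adjusted p = 0.0228 from limma). The change reached -1.01 without CX3CR1- replicate 3, and the adjusted p rose to 0.0847 without CX3CR1- replicate 1, 0.0577 without CX3CR1- replicate 2, 0.0603 without CX3CR1+ replicate 2 and 0.104 without CX3CR1+ replicate 3. After quantile normalization the change was -0.46 (adjusted p = 0.18), and with equal non-mitochondrial totals, no trend or scaling to Ptprc the adjusted p lay between 0.0797 and 0.203.

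Nfkbie (chr17:45555703-45563169, plus strand) encodes IkBε, an inhibitor that responds later than IkBα. It had values of 519, 848 and 724 in CX3CR1- and of 574, 972 and 1159 in CX3CR1+ libraries. It was the only one of the 10 genes whose groups overlapped, with CX3CR1+ replicate 1 below 2 CX3CR1- libraries. The log2 fold change of -0.34 (SE 0.28, 95% interval -0.96 to 0.28) had an adjusted p of 0.428 from limma, and the interval holds both no change and a nearly 2-fold lower level.

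The nuclear IkB gene Nfkbiz showed the largest and least variable difference of the 10. Nfkbiz (chr16:55811375-55838899, minus strand) encodes IkBζ, which binds p50 in the nucleus and is needed for a second wave of targets such as Il6. Its values were 3168, 3506 and 3863 in CX3CR1- and 10179, 10179 and 10731 in CX3CR1+ libraries. All CX3CR1+ libraries lay within a narrow band far above the CX3CR1- libraries. The means were 3512 ± 347 (SD, n = 3) and 10363 ± 319 (SD, n = 3), 2.95-fold higher in CX3CR1+ cells. On the log2 scale the change was -1.56 (SE 0.13, 95% interval -1.86 to -1.27, adjusted p = 2.29e-05 from limma), and Nfkbiz was called in all 17 alternative settings.

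Bcl3 (chr7:19808462-19822770, minus strand), the second nuclear IkB gene, encodes a partner of p50 and p52 homodimers. It stood at 325, 386 and 375 in CX3CR1- and at 462, 608 and 533 in CX3CR1+ libraries. The groups were apart, yet the difference was the second smallest of the 10. The estimate of -0.55 on the log2 scale (SE 0.19, 95% interval -0.98 to -0.13) had an adjusted p of 0.0619 from limma, which was not past the threshold.

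Tnfaip3 (chr10:19000910-19015657, minus strand) encodes A20, a ubiquitin-editing enzyme that switches off signalling upstream of IKK. It had values of 2352, 3353 and 3247 in CX3CR1- and of 5669, 7774 and 9629 in CX3CR1+ libraries. The CX3CR1+ libraries differed widely among themselves, and all lay above the CX3CR1- libraries. The means were 2984 ± 550.0 (SD, n = 3) and 7691 ± 1981 (SD, n = 3). Its log2 fold change was -1.35 (SE 0.21, 95% interval -1.82 to -0.88, adjusted p = 0.00116 from limma). Without any single library it stayed between -1.55 and -1.17, and after quantile normalization it was -0.84 (adjusted p = 0.0105), which ended the call by its size.

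**Figure D2:**
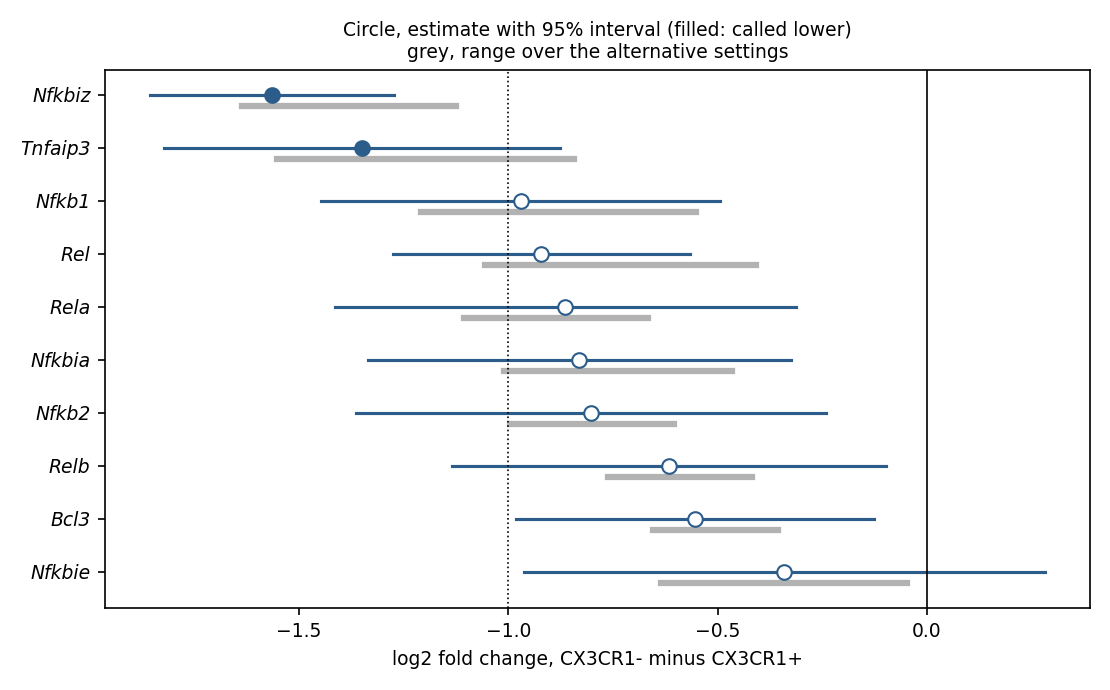
Log2 fold change (CX3CR1- minus CX3CR1+) of the 10 genes on the log2(value + 1) scale, with the estimate as a circle, the 95% interval from limma as a line and the range over the alternative settings in grey. The filled circles of Nfkbiz and Tnfaip3 are the 2 called genes, and only the interval of Nfkbie crosses 0.

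CX3CR1+ replicate 1 was the lowest library of its group for 8 of the 10 genes and the highest for 0, and CX3CR1- replicate 1 was the lowest of its group for 6. The coefficient of variation ran from 8.80 to 31.8% over the 10 genes in CX3CR1- libraries and from 3.08 to 33.2% in CX3CR1+ libraries, and for 7 of the 10 genes the CX3CR1+ libraries had the larger one. The direction of all 10 genes was the same in each of the 17 alternative settings, with Nfkbie closest to 0 (-0.05 after quantile normalization).

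Levels of different genes were compared per kb of the longest protein-coding transcript, and the order depends on that length. The longest transcript has 4422 bp for Tnfaip3 and 4115 bp for Nfkbiz, whereas the median lengths are 2412 and 3917 bp. By the median lengths the mean per kb of Tnfaip3 was above that of Nfkbiz in both populations. In CX3CR1- cells the order of the mean values per kb was Nfkbiz (854), Rel (770), Tnfaip3 (675), Nfkbia (659), Nfkb1 (430), Nfkbie (286), Bcl3 (196), Rela (122), Relb (85.8) and Nfkb2 (48.2). In that order the libraries of Nfkbiz and Rel, of Rel and Tnfaip3, of Tnfaip3 and Nfkbia, and of Rela and Relb overlapped, whereas the other neighbours were apart. In CX3CR1+ cells, with the longest transcript as length, Nfkbiz (2518 per kb) stood clear of all the others. Tnfaip3 (1739), Rel (1471), Nfkbia (1175) and Nfkb1 (861) followed, with overlap between neighbours from Tnfaip3 to Nfkb1. Apart from these, Nfkbie (370.2), Bcl3 (289) and Rela (217) came next, again with overlap between neighbours, and Relb (132) and Nfkb2 (84.6) closed the order with none. Among the 17068 tested genes with a transcript length, Nfkbiz was at percentile 98.0 in CX3CR1- and 99.3 in CX3CR1+ cells, while Nfkb2 was at 66.6 and 78.9.

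The shares of the subunits within their pool overlapped between the populations, while each subunit had a lower mean in CX3CR1- cells. Rel provided 52.9 ± 1.44% of the 5 subunit transcripts per kb in CX3CR1- and 53.3 ± 1.76% in CX3CR1+ libraries (SD, n = 3 each). Nfkb1 provided 29.5 ± 1.70% and 30.8 ± 2.86%, and Rela 8.36 ± 2.18% and 7.98 ± 1.22%. Relb made up 5.89 ± 0.81% in CX3CR1- and 4.83 ± 0.79% in CX3CR1+ libraries, and Nfkb2 3.37 ± 1.01% and 3.05 ± 0.155%. The groups overlapped for all 5 shares, and these shares, being taken within a library, do not depend on the scaling between libraries.

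Ratios within a library show how Nfkbiz and Tnfaip3 stood to the other genes. Of 10 ratios of values per kb, 4 did not overlap between the populations, and each of these had Nfkbiz or Tnfaip3 as its numerator. These 2 genes had the largest falls of the 10 genes. Lower ratios to genes that fell less follow from those falls and are not a separate result. The ratio of Nfkbiz to Bcl3, the other nuclear IkB gene, was 4.38, 4.08 and 4.63 in CX3CR1- and 9.90, 7.53 and 9.06 in CX3CR1+ libraries. The ratio of Nfkbiz to Nfkbia was 1.46, 1.38 and 1.13 in CX3CR1- and 2.66, 2.26 and 1.74 in CX3CR1+ libraries. Nfkbiz was thus lower in CX3CR1- cells relative to Bcl3 and Nfkbia too. The ratio of Tnfaip3 to Nfkbia was 1.04 ± 0.173 in CX3CR1- and 1.48 ± 0.118 in CX3CR1+ libraries, and that of Nfkbiz to Rela 7.51 ± 2.51 and 11.8 ± 1.91 (SD, n = 3 each).

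The inhibitor to subunit ratio, in contrast, overlapped. The ratio of Nfkbia to Rela was 3.17, 6.76 and 7.60 in CX3CR1- libraries and 4.57, 4.28 and 7.75 in CX3CR1+ libraries. Its range within either population was far wider than the difference of the means. The ratios of Nfkbie and Tnfaip3 to Rela, of Rel to Rela, of Nfkb1 to Nfkb2 and of Nfkbie to Nfkbia overlapped as well. No test was made of the ratios, whose gene pairs were picked after the values had been seen.

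**Figure D3:**
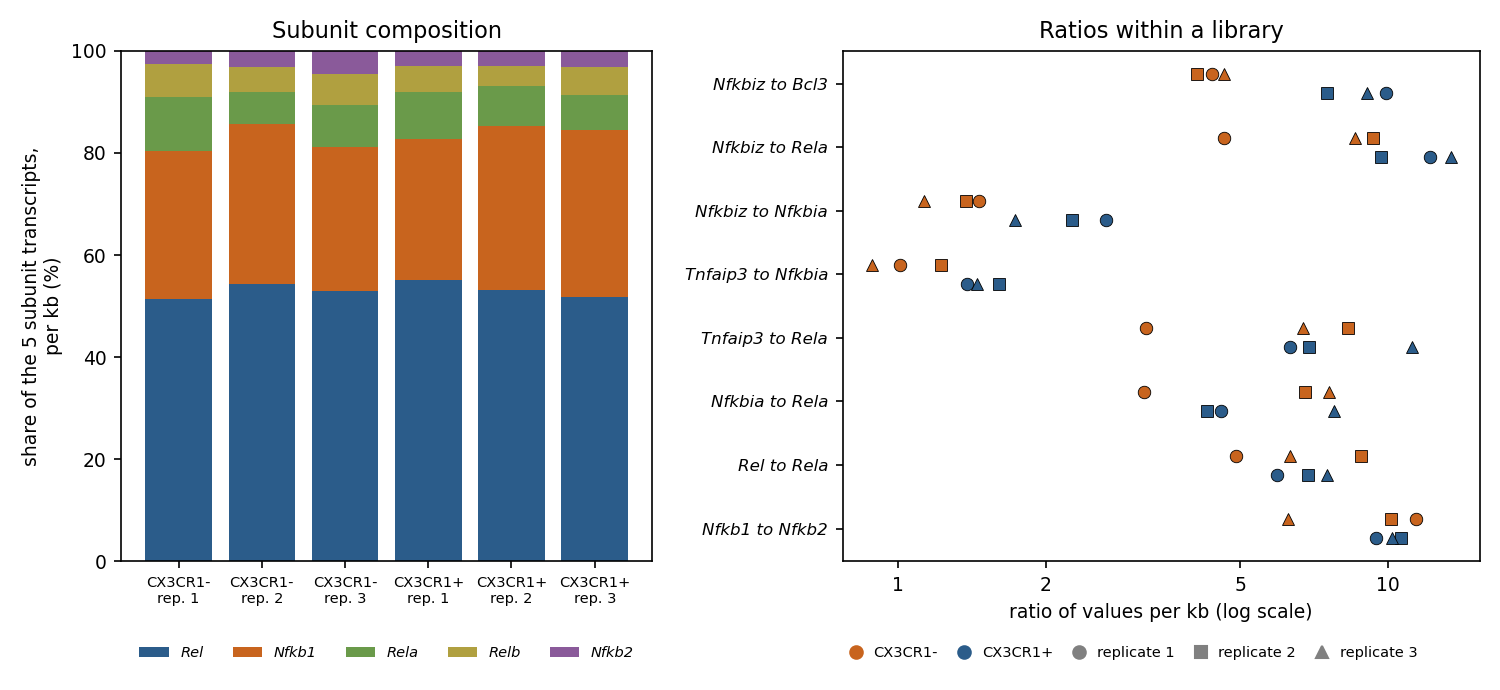
Left, share (%) of each of the 5 subunit genes in their summed values per kb, as stacked bars for the 6 libraries. Right, 8 of the 10 ratios of values per kb (log axis), with a point for each library, coloured by population. Rel takes about the same share in each bar, from 51.5 to 55.2%, and the ratios of Nfkbiz to Bcl3, Rela and Nfkbia and of Tnfaip3 to Nfkbia separate the populations.

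The rest of the pathway was described with 5 lists of 78 genes, of which 77 were tested, 10 rose and 25 fell in CX3CR1- cells. Of all tested genes, 12.2% rose and 8.15% fell. In the IKK complex and its upstream kinases, 0 of 12 genes were called in either direction and the median log2 fold change was -0.37. At an adjusted p of at most 0.05 alone, 3 of the 12 were lower and none higher, and these were named after their values had been seen. Tab2, an adaptor of the kinase TAK1, was at 1027 ± 79.7 in CX3CR1- and 1876 ± 57.4 in CX3CR1+ cells (SD, n = 3 each, log2 fold change -0.87, adjusted p = 0.00187 from limma). The log2 fold changes of Tbk1, an IKK-related kinase, and Map3k8, the kinase held by p105, were -0.69 (adjusted p = 0.0207) and -0.90 (adjusted p = 0.0178), and without CX3CR1- replicate 3 Map3k8 passed the fold threshold at -1.02.

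Among 15 TRAF, cIAP and LUBAC adaptors 2 rose (13.3%) and 2 fell (13.3%), with a median log2 fold change of -0.03. Over all tested genes 12.2% rose and 8.15% fell. Malt1, a paracaspase on the way from immune receptors to IKK, had values of 1618, 2031 and 1067 in CX3CR1- and of 451, 579 and 771 in CX3CR1+ libraries. It rose by 1.37 on the log2 scale with an SE of 0.27 and an adjusted p of 0.0041 (limma). Markers of B and plasma cells were also higher in CX3CR1- cells, where 8 of the 10 rose. Their summed value was 12603, 33319 and 37990 in CX3CR1- replicates 1, 2 and 3, while Malt1 was lowest in replicate 3. In CX3CR1+ libraries the sum was 1678 to 2067, and Mzb1 was at or under 3 reads. Dendritic cell, epithelial and fibroblast markers were higher in CX3CR1- cells too. The part of any of these cells in this result was not tested. Birc3, a cIAP and itself an NF-kB target, fell by 1.15 on the log2 scale (adjusted p = 0.00234), a change that was no longer past the fold threshold without CX3CR1+ replicate 3 (-0.96), after quantile normalization (-0.71), with equal non-mitochondrial totals (-0.98) or scaled to Ptprc (-0.95). Card9, the adaptor of C-type lectin receptors, was at 21.3, 39.8 and 9.88 in CX3CR1- and at 56.5, 69.2 and 74.5 in CX3CR1+ libraries, and its call (log2 fold change -1.65, adjusted p = 0.0313) was kept only when CX3CR1- replicate 2 was the library left out, with adjusted p-values of 0.069 to 0.114 otherwise, and it was also lost with no intensity trend (0.0594).

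Of 18 other IkB proteins and feedback inhibitors, 2 rose (11.1%) and 4 fell (22.2%), with a median log2 fold change of -0.25. Over all tested genes 12.2% rose and 8.15% fell. Tank, an adaptor of the IKK-related kinases that restrains Toll-like receptor signalling, was at 571, 489.8 and 711 in CX3CR1- and at 1976, 2605 and 1851 in CX3CR1+ libraries. On the log2 scale Tank fell by 1.86 with an SE of 0.20 and an adjusted p of 1.11e-04 (limma). Tnip3, which encodes an A20-binding inhibitor, went the opposite way to Tnfaip3 itself, at 2272, 2977 and 2804 in CX3CR1- and 746, 947 and 1203 in CX3CR1+ libraries. Tnip3 rose by 1.49 on the log2 scale with an SE of 0.20 and an adjusted p of 4.50e-04 (limma).

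The remaining calls in that list rested on lower values. Pdlim2, a ubiquitin ligase for RelA, rose by 1.68 on the log2 scale (adjusted p = 0.0168 from limma), but the adjusted p rose to between 0.0531 and 0.0725 when CX3CR1- replicate 1 or 2 or CX3CR1+ replicate 1 or 3 was left out. Tnfaip8l2 had one of -1.30 (adjusted p = 0.0117), with an adjusted p of 0.0669 without CX3CR1+ replicate 1 and 0.0542 without CX3CR1+ replicate 2. Nfkbib, the gene of IkBβ, had one of -1.24 (adjusted p = 0.00748) that was -0.996 without CX3CR1+ replicate 2. Irak3, an inhibitor of Toll-like receptor signalling, had one of -1.10 (adjusted p = 0.0176), and its call ended without CX3CR1- replicate 3 (-0.998), CX3CR1+ replicate 1 (adjusted p = 0.0813) or CX3CR1+ replicate 3 (adjusted p = 0.0824), and with equal non-mitochondrial totals (-0.93). Scaled to Ptprc, Tnfaip8l2 (adjusted p = 0.0682), Nfkbib (0.0659) and Irak3 (0.0829) were not called.

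Of 6 receptors of the non-canonical arm, 1 rose and 3 fell, where over all tested genes 12.2% rose and 8.15% fell. Tnfrsf13c, the BAFF receptor of B cells, was at 242, 342 and 250.4 in CX3CR1- and at 14.9, 20.6 and 21.4 in CX3CR1+ libraries (log2 fold change 3.80, adjusted p = 1.66e-05 from limma), beside the same B and plasma cell markers, whose part in it was not tested. Tnfrsf11a, which encodes RANK, was at 293, 413 and 207 in CX3CR1- and at 950.2, 782 and 858 in CX3CR1+ libraries (log2 fold change -1.55, adjusted p = 0.00140). Cd40 fell by 1.19 on the log2 scale (adjusted p = 0.00712), from 527 ± 143 in CX3CR1+ to 227 ± 38.2 in CX3CR1- cells (SD, n = 3 each), and was just under the fold threshold scaled to Ptprc (-0.99). Tnfrsf12a, the receptor of TWEAK, fell by 1.12 on the log2 scale (adjusted p = 0.0253), and its adjusted p was 0.0628 without CX3CR1- replicate 1 and 0.0501, 0.118 and 0.0727 without CX3CR1+ replicates 1, 2 and 3. It was not called with equal non-mitochondrial totals (adjusted p = 0.0536), no trend (0.0704) or scaling to Ptprc (0.145).

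Most textbook NF-kB targets were lower in CX3CR1- cells. Of the 26 tested, 16 fell (61.5%) and 5 rose (19.2%), where over all tested genes 8.15% fell and 12.2% rose. The median log2 fold change was -1.64, against -0.85 for the 10 NF-kB genes. Plau, the urokinase gene, was at 199.9 ± 48.3 in CX3CR1- and at 2662 ± 719.9 in CX3CR1+ libraries (SD, n = 3 each), which is -3.72 on the log2 scale with an SE of 0.25 and an adjusted p of 6.59e-06 (limma). Vcam1, an adhesion molecule, had one of -3.77 (adjusted p = 1.31e-05), with values of 168 to 394 in CX3CR1- and of 2927 to 3412 in CX3CR1+ libraries. Among inflammatory mediators Cxcl2, Tnf, Ptgs2, Cxcl1, Il1a and Il1b fell, with log2 fold changes of -3.04, -2.86, -2.55, -2.43, -1.75 and -1.23, although Il1b was at -0.70 after quantile normalization and no longer called. Survival and stress genes also fell, namely Ier3 (-2.69), Bcl2l1 (-2.09), Cflar (-1.84), Gadd45b (-1.52) and Sod2 (-1.45). The 5 that rose were Ccr7, Ccl22, Il6, Ccl5 (log2 fold change 1.56) and Traf1 (1.04), of which Traf1 was under the fold threshold without CX3CR1- replicate 2 (0.90) or CX3CR1+ replicate 1 (0.93), and just under it with library weights. Ccr7 and Ccl22 are also among 8 markers of mature migratory dendritic cells, 7 of which rose, with a summed value of 2609 to 3356 in CX3CR1- and 883 to 1150 in CX3CR1+ libraries, and the part of such cells was not tested.

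**Figure D4:**
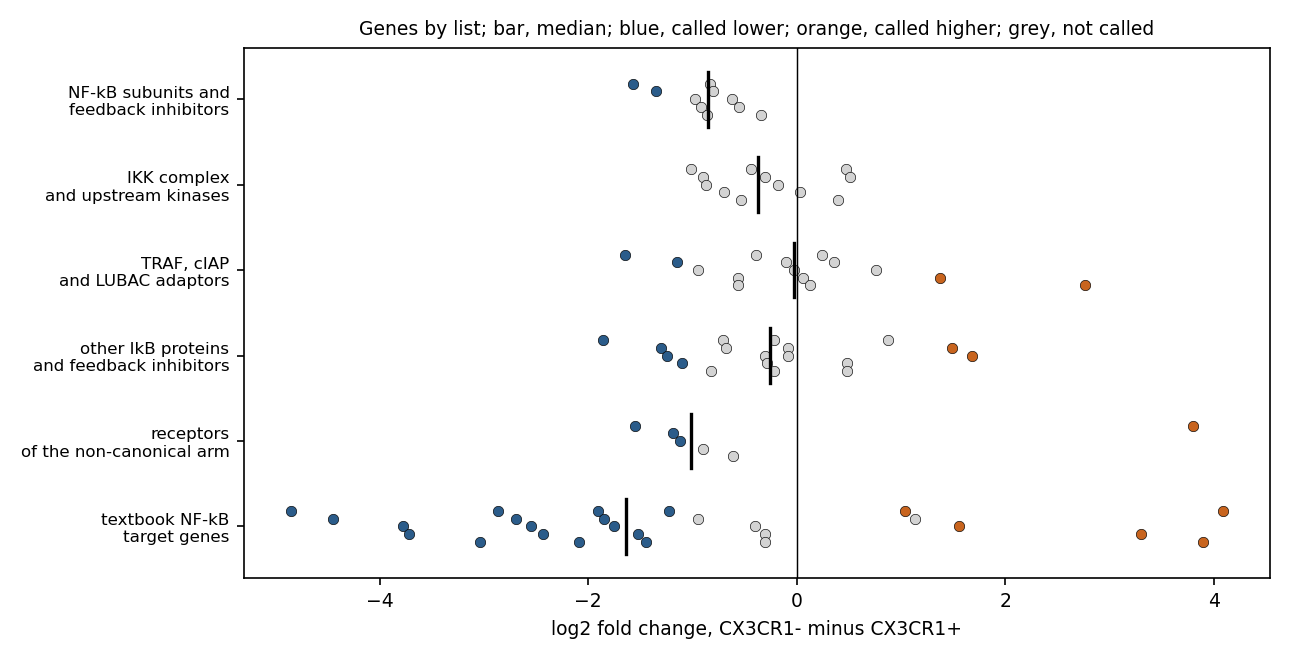
Log2 fold change (CX3CR1- minus CX3CR1+) of each tested gene in the 10-gene NF-kB set and in the 5 pathway lists, with genes called lower in blue, called higher in orange and not called in grey, and the median of each list as a bar. The median is -0.85 for the NF-kB genes, -0.37 for the kinases and -1.64 for the textbook targets.

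The populations differed in more than the NF-kB genes, and these values stood beside every result above. Cx3cr1, the gene of the sort, was at 23.6 ± 4.80 in CX3CR1- and 366 ± 17.5 in CX3CR1+ libraries (SD, n = 3 each). The labels call all cells dendritic cells and the study calls them macrophages. The study based its name in part on protein, with IBA-1 stained in all MHCII+ cells, and also described cell shape and location. From RNA it named Ear2, Fn1 and Lys1, higher in CX3CR1- cells, as markers of the monocyte-macrophage lineage. It also reported lower CSF1R RNA in these cells, and higher RNA of the dendritic cell markers CD103 and Flt3. By its flow cytometry, most CX3CR1- cells carried CD11b and only a very small part carried CD11c or CD103. The markers given here are RNA in bulk libraries, and their counts stand beside 12.2% of all tested genes higher and 8.15% lower. All 10 macrophage markers fell in CX3CR1- cells, with a summed value of 7313 to 8776 against 40539 to 45990. Cx3cr1 is one of these 10, and its fall was set by the sort. Of 10 conventional dendritic cell markers 9 rose, with a summed value of 5588 to 6297 against 1527 to 1662. Epithelial markers (10 of 10 higher, 16865 to 28507 against 28.9 to 60.3, with Krt8 and Krt20 at or under 3 reads in CX3CR1+ libraries) and fibroblast markers (10 of 10 higher, 6629 to 18420 against 411 to 626) were also higher in CX3CR1- libraries. Mitochondrial genes took 51.7 ± 3.76% of the value in CX3CR1- and 19.6 ± 1.55% in CX3CR1+ libraries (SD, n = 3 each). Ptprc, which encodes the leukocyte antigen CD45, was at 3737 ± 836 and 4225 ± 342 (log2 fold change -0.20, adjusted p = 0.472 from limma, and 0.32 after quantile normalization), and scaled to it, all 10 NF-kB genes were lower, Nfkbiz and Tnfaip3 at -1.37 and -1.15. The part of cell composition and RNA quality in these results was not tested.

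Of 20 immediate-early genes, which answer within minutes to stimulation, 3 rose (15%), 4 fell (20%) and 13 were not called in CX3CR1- cells. Over all tested genes 12.2% rose and 8.15% fell. The median log2 fold change of the 20 genes was -0.32. Their summed value was 80812 to 85311 in CX3CR1- and 145631 to 152783 in CX3CR1+ libraries. Much of that sum was Zfp36, with means of 22605.7 in CX3CR1- and 58252.5 in CX3CR1+ libraries. Atf3, Zfp36, Ier5 and Junb fell, with log2 fold changes of -2.02, -1.36, -1.23 and -1.03, while Fosl1 (2.07), Klf2 (1.24) and Klf4, just past the fold threshold, rose. Of these, Junb, Fosl1 and Klf4 lost the call without some single libraries: Junb without CX3CR1- replicate 3 (-0.92) or CX3CR1+ replicate 2 (-0.98), Fosl1 without CX3CR1- replicate 3 or CX3CR1+ replicate 1 or 3 (adjusted p from 0.0654 to 0.0664, limma), and Klf4 without CX3CR1- replicate 2 (0.94) or CX3CR1+ replicate 3 (0.92). After quantile normalization Ier5 (-0.78), Junb (-0.55) and Fosl1 (adjusted p = 0.0539) were not called, Junb was not with equal non-mitochondrial totals (-0.86) or scaled to Ptprc (-0.83), and Klf4 was just under the fold threshold with library weights or a pseudocount of 10. The part of this response in the NF-kB results was not tested.

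The 5 genes whose pattern over the 6 libraries was most like that of Nfkbia, by Pearson's r of log2(value + 1) among 10198 genes with a mean of at least 50, were Gm37733 (0.991), Gm37673 (0.990), 9830144P21Rik (0.990), Dgkh (0.988), the gene of a diacylglycerol kinase, and Olfr1175-ps (0.988). Over so few libraries, which share the split by population, this is a description. Among the NF-kB genes r with Nfkbia was highest for Tnfaip3 (0.947) and Nfkb2 (0.932) and lowest for Rela (0.557).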

How the data were processed

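RNA from 6 bulk libraries was sequenced as 75 bp single reads. The authors pseudoaligned them with Kallisto to the mouse transcriptome (mm10, GENCODE M16), imported estimated counts with tximport and normalized them between libraries with DESeq2. The deposited values are this normalized signal and were used as such. They are not counts, since only 42.5 to 44.6% of the values above 0 were whole multiples of the smallest step of a library (tolerance 0.01), and no count test was run. That step gave about 5346379 to 17616748 reads per library and a value of 3 reads of 1.39 to 5.36. Floors cover counting error only.

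Groups came from the sample labels. The values were tested two-sided with limma 3.58.1 in R 4.3.3 (lmFit, eBayes with trend) on log2(value + 1) for genes with a mean of at least 10, checked on simulated data. A pseudocount of 1 understates the change of low genes. An exact permutation test of 3 against 3 libraries cannot go below p = 0.1. Positions, lengths and 31-mers came from GENCODE M21 (GRCm38), and promoters from RefSeq. Plots were drawn with matplotlib 3.10.9.

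The 10 members, the gene lists and the ratios were chosen with earlier results of these data known. All 10 genes are named. Genes of the pathway lists are named if past the threshold, with full values for at most 4 per list. Items withheld from the text are not reported here. Of the 26110 genes, 23 symbols occur more than once. The alternatives tried were 2 other pseudocounts, 2 other filters, other scalings, no trend, library weights and leaving out each library. Scaling to Ptprc, a block of adjacent library numbers, median transcript length and no length correction were chosen after seeing the data.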

Additional observations from a re-analysis of the deposited data

How the results depend on the processing

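All 10 genes kept a lower mean in CX3CR1- cells under each of the 17 alternatives, and 0 were called higher in any. The number called lower was 1 after quantile normalization, 2 in the other alternatives with all libraries, and 2 to 4 when one library was left out. It was 4 without CX3CR1- replicate 1, which added Nfkb1 and Rela, and 4 without CX3CR1+ replicate 1, which added Nfkb1 and Rel. The number at an adjusted p of at most 0.05 (limma) fell from 7 to 2 after quantile normalization or scaling to Ptprc, to 3 with no intensity trend, to 4 with equal non-mitochondrial totals, and to 4 to 6 when one library was left out. Pathway genes called stayed between 30 and 36, against 35 as reported, and between 30 and 35 when one library was left out.

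Quantile normalization moved the median of all tested genes to -0.15 on the log2 scale, equal non-mitochondrial totals to 0.16 and scaling to Ptprc to 0.19. Relative to these medians, the median of the 10 genes was -0.44, -0.84 and -0.84, and 9, 10 and 10 of them lay below, Nfkbie being 0.10 above after quantile normalization. Scaled to Ptprc, 2272 genes were called higher and 922 lower, against 2177 and 1451 as reported. Quantile normalization gave 1716 and 1674, and equal non-mitochondrial totals 2487 and 1116. The log2 fold change of Ptprc turned to 0.32 after quantile normalization. The causes were not tested. The difference in the share of Rel (CX3CR1- minus CX3CR1+) was -0.43 percentage points as reported and -1.25 to 0.50 when one library was left out. The 2 populations share no replicate numbers in the labels, which state no pairing. Taking adjacent library numbers as pairs, chosen after seeing the data, the deviations from the group means correlated at 0.104, 0.038 and 0.0142 within pairs, which did not establish pairing, and CX3CR1- replicate 3 correlated more closely with CX3CR1+ replicate 2 (0.0404) than with its own neighbour. With this replicate block 2 NF-kB genes were called lower, 7 were at an adjusted p of at most 0.05, 35 pathway genes were called and Nfkbie had an adjusted p of 0.231 (limma), so no call of a named gene changed.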
